A study of Homo sapiens with 8 samples.

Results

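SERPINA5, PADI2, ECEL1, TNFSF10 and SLC7A8 were the 5 genes with the highest rises after knockdown of NFE2L2 in A549 cells among genes above a minimum of reads, out of 60291 gene identifiers counted and 17811 with enough reads to compare. They were chosen from the measured values themselves: genes were ranked by the log2 difference between the NFE2L2 siRNA and control siRNA libraries among genes past the threshold of the test (edgeR's quasi-likelihood test, Benjamini-Hochberg adjusted p under 0.01), whose reads averaged 50 or more and in which every NFE2L2 siRNA library lay above every control library. Their rise is therefore a description of these libraries and was not tested. A549 is an established line from a human lung adenocarcinoma, in which a loss-of-function mutation of KEAP1 keeps the NRF2 protein constitutively high, so all groups share this background. Strand-specific total RNA was sequenced from 8 transfections of 250000 cells each. There were 3 transfections with siRNA against NFE2L2 (5 nmol, 3 different duplexes with 1 transfection each), 4 with control siRNA (5 nmol, 2 duplexes with 2 transfections each) and 1 mock transfection that received only the lipid reagent. A duplex is a double-stranded siRNA of 1 sequence, so the 3 NFE2L2 libraries differ in the siRNA used as well as in the culture. Sources here do not say whether transfections were done on different days. The p-values measure only the spread between these transfections, in which differences among duplexes and among cultures are mixed. In the comparison with controls, the 2 repeats of a control duplex were counted as separate libraries.

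NFE2L2 encodes NRF2, a transcription factor that KEAP1 normally marks for degradation and that drives antioxidant and detoxification genes through the antioxidant response element. The 5 genes have unrelated products. SERPINA5 encodes the protein C inhibitor, a secreted clade A serpin that inhibits serine proteases of coagulation and fibrinolysis. PADI2 encodes a peptidylarginine deiminase, which converts arginine residues of proteins to citrulline. ECEL1 encodes a membrane protein of the M13 (neprilysin) peptidase family, best known from neurons. TNFSF10 encodes TRAIL, a ligand of the tumour necrosis factor family that can trigger apoptosis through death receptors. SLC7A8 encodes LAT2, a light chain that pairs with the heavy chain SLC3A2 to exchange neutral amino acids across the membrane.

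The 250 bases before the annotated start sites are shown because they are the stretch in which an antioxidant response element or a TATA box would lie close to the start. The sequences are those of RefSeq on GRCh38.p14, written 5′ to 3′ on the strand of the gene, and all 5 symbols were matched. Capitals mark matches to the response element core, searched as TGACNNNGC and TGAGNNNGC, or to the TATA box, searched as TATAAA, each on both strands. In the same window of all 35116 start sites, 10.9% held TGACNNNGC, 14.8% held TGAGNNNGC and 10.7% held TATAAA. SLC7A8 has 4 annotated start sites, of which the third, whose window partly overlaps that of the first, held a match and is printed.
SERPINA5, chr14:94581176-94581425, plus strand: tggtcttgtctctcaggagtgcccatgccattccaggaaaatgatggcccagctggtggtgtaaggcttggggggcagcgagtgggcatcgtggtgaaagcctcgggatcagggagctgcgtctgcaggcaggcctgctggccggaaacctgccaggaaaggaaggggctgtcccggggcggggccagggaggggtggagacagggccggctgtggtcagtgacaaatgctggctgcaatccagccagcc
PADI2, chr1:17119452-17119701, minus strand: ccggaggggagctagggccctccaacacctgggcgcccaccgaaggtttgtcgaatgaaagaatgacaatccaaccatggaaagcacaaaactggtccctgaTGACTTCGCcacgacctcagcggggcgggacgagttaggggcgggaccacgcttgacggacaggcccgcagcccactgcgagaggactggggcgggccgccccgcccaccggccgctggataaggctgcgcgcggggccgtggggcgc
ECEL1, chr2:232487835-232488084, minus strand: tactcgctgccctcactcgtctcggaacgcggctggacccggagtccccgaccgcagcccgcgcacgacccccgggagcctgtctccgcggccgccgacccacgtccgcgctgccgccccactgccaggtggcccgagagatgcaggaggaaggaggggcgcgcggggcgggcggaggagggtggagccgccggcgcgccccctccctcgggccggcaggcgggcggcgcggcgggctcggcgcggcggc
TNFSF10, chr3:172523431-172523680, minus strand: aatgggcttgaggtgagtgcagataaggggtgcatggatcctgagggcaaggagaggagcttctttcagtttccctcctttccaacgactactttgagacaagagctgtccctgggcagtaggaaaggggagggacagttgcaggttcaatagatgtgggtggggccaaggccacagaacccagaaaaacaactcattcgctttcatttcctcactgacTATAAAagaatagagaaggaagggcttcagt
SLC7A8, start site 3, chr14:23155459-23155708, minus strand: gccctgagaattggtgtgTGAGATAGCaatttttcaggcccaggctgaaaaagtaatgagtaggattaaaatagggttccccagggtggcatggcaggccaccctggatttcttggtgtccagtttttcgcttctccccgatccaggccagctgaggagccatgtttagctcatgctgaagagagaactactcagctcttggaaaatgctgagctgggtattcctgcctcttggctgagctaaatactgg
PADI2 held TGACNNNGC at position -148 from the start site, the SLC7A8 window printed held TGAGNNNGC at position -232, and TNFSF10 held TATAAA at position -31. The SERPINA5 and ECEL1 windows and the other SLC7A8 windows held none of these letter patterns. The windows differed in composition, from 80.8% G and C with 41 CG dinucleotides at ECEL1 to 49.6% with 2 at TNFSF10. A match describes the letters only, and binding was not measured here.

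The libraries held 35525141 to 41645410 reads on genes, and reads on genes made up 60.3% to 65.6% of the entries of each file. The targeted gene was lower in each library labelled NFE2L2 siRNA. NFE2L2 had 1178, 2044 and 1262 reads with duplexes 1, 2 and 3, 3974 to 4227 reads in the 4 control libraries and 4408 in mock, which left 29.5%, 46.6% and 26.6% of the control mean in counts per 1000000 reads (CPM). Duplex 2 thus left the most NFE2L2 mRNA. A549's epithelial identity was seen in all libraries, with all 6 epithelial markers examined detected and a summed level of 8451 to 13072 CPM with NFE2L2 siRNA, 8683 to 9296 in controls and 10895 in mock. KRT8, KRT18 and KRT7, the keratins with the most reads, made up nearly all of that sum. All 6 had a positive log2 difference, with a median of 0.50 beside 0.01 over all tested genes. In edgeR or limma-voom 0 of the 6 passed, and DESeq2 called 2, while edgeR called 2.76% of all tested genes. An unadjusted edgeR p under 0.05 was found for 3, where 25% of all tested genes had one. CDH1, E-cadherin, differed by 0.74 and KRT19, a further keratin, by 0.88. Each had every NFE2L2 siRNA library above every control, as did 11.9% of all tested genes. CDH1 also differed between the control duplexes, at -0.67 for duplex 2 against 1 (SE 0.112, edgeR adjusted p = 0.00601). Of 9 markers of blood, endothelium and fibroblasts, 8 were matched, and their summed level was 10.1 to 14.6 CPM with NFE2L2 siRNA, 4.54 to 4.92 in controls and 3.81 in mock. COL1A1, a collagen chain of fibroblasts, made up most of that sum, with 331 to 569 reads against 143 to 169, a log2 difference of 1.50 (SE 0.154, edgeR adjusted p = 0.000493). CDH5, the cadherin of endothelial junctions, had 18 to 39 reads against 4 to 8, a log2 difference of 1.99 (SE 0.343, edgeR adjusted p = 0.00820). The call for CDH5 was lost when either NFE2L2 replicate 2 or 3 or any of the 4 control libraries was left out, with adjusted p from 0.0103 to 0.0364. Over all 17 other settings of the processing, CDH5 kept its call in 7 and COL1A1 in 14. The other 6 markers did not move with them. The fibroblast genes COL1A2 and DCN had at most 3 and at most 1 reads in a library, the endothelial VWF had 3 to 4 with NFE2L2 siRNA and 2 to 5 in controls, and the macrophage marker CD68 had 3 to 6 and 2 to 6. PTPRC, the leukocyte antigen, had 0 to 2 and 0 to 3. CD3E, a T cell marker, was at 0 in all NFE2L2 siRNA libraries, and PTPRC and CD3E were at 0 in mock. The part of these marker differences in the results was not tested, and in bulk RNA a change in the number of cells of a type and a change of RNA per cell cannot be told apart.

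**Figure D1:**
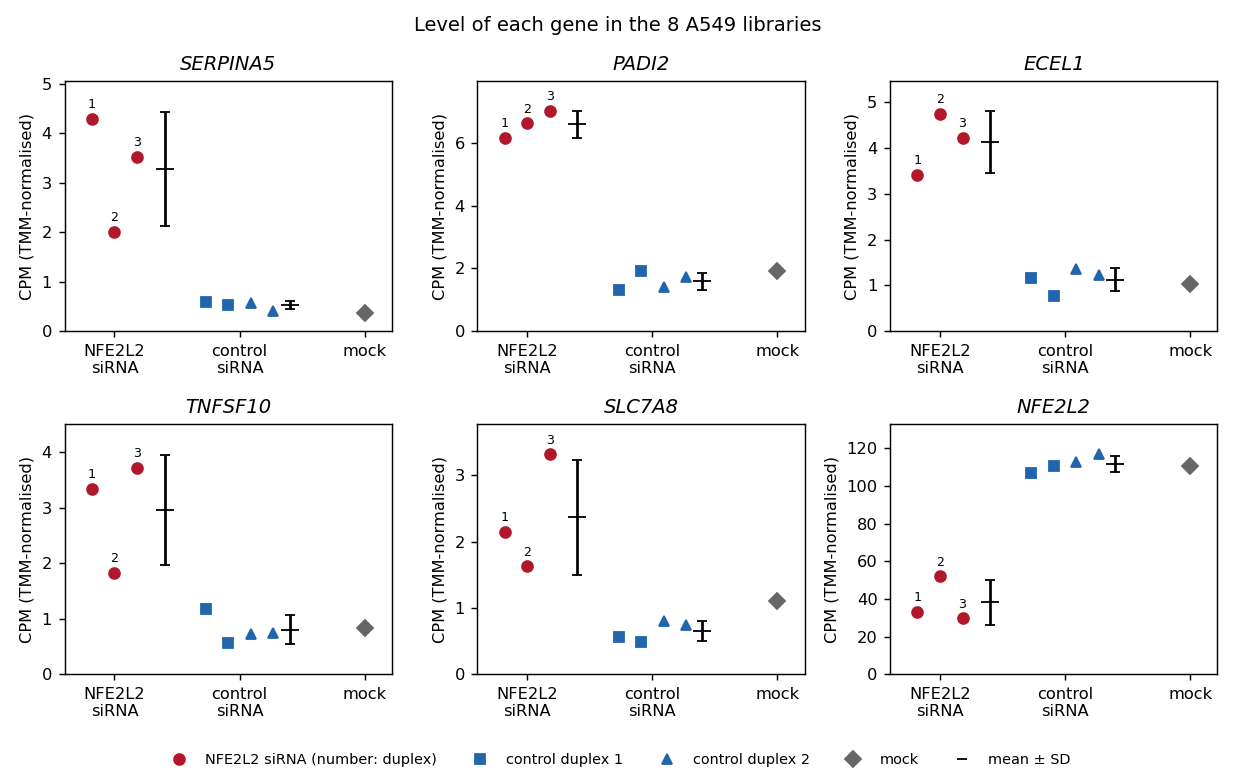
Level of the 5 genes and of NFE2L2 in each library, in TMM-normalised CPM on linear axes that start at 0. Points are libraries, numbers on red points are NFE2L2 duplexes, and bars are the mean ± SD of 3 NFE2L2 siRNA and 4 control libraries. For all 5 genes the red points lie above the blue ones, with a gap that is narrowest for TNFSF10, and for NFE2L2 they lie below.

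SERPINA5 (ENSG00000188488.9, GRCh37 chr14:95027779-95059455, plus strand) showed the largest rise of the 5. It had 153, 79 and 150 reads with NFE2L2 duplexes 1, 2 and 3, against 22 and 20 reads with control duplex 1, 21 and 15 with control duplex 2 and 15 in mock. The NFE2L2 siRNA libraries did not overlap the controls, but duplex 2 gave a visibly lower level than the other duplexes. Its mean level was 3.27 ± 1.16 CPM (SD, n = 3) with NFE2L2 siRNA and 0.528 ± 0.0781 CPM (SD, n = 4) in controls, a 6.20-fold ratio and a log2 difference of 2.62 (SE 0.279). By duplex, the ratio to the control mean was 8.10, 3.81 and 6.68. The gene lies among other clade A serpins, and its limits in the annotation used here overlap those of SERPINA4 on the same strand, which was read 6 to 8 times after knockdown and 1 to 4 times in controls.

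PADI2 (ENSG00000117115.8, GRCh37 chr1:17393256-17445946, minus strand) rose most evenly. It had 220, 260 and 298 reads with NFE2L2 duplexes 1, 2 and 3, 49 and 71 with control duplex 1, 52 and 62 with control duplex 2 and 77 in mock. All 3 NFE2L2 siRNA libraries were far above the controls and close to each other. The mean was 6.59 ± 0.427 CPM (SD, n = 3) against 1.59 ± 0.275 CPM (SD, n = 4), a 4.15-fold ratio and a log2 difference of 2.05 (SE 0.162). The ratio was 3.88, 4.17 and 4.41 by duplex, so the highest NFE2L2 siRNA library was only 1.14 times the lowest.

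ECEL1 (ENSG00000171551.7, GRCh37 chr2:233344537-233352544, minus strand) had similar levels with duplexes 2 and 3. The gene had 122, 187 and 180 reads with NFE2L2 duplexes 1, 2 and 3, 43 and 29 with control duplex 1, 50 and 44 with control duplex 2 and 41 in mock. The groups did not overlap, and here duplex 1 was the lowest of the 3. The mean was 4.13 ± 0.678 CPM (SD, n = 3) against 1.13 ± 0.245 CPM (SD, n = 4), a 3.67-fold ratio and a log2 difference of 1.87 (SE 0.208), with ratios of 3.03, 4.22 and 3.76 by duplex. Its annotated pseudogenes held 0 or 1 read per library.

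TNFSF10 (ENSG00000121858.6, GRCh37 chr3:172223298-172241265, minus strand) was the member with the smallest gap between the groups. It had 119, 72 and 158 reads with NFE2L2 duplexes 1, 2 and 3, 44 and 21 with control duplex 1, 27 with each library of control duplex 2 and 33 in mock. The lowest NFE2L2 siRNA library, duplex 2, was 1.55 times the highest control in CPM, and that control was 1 of the 2 repeats of control duplex 1. The mean was 2.96 ± 0.994 CPM (SD, n = 3) against 0.806 ± 0.264 CPM (SD, n = 4), a 3.67-fold ratio and a log2 difference of 1.87 (SE 0.302). The ratio was 4.13, 2.27 and 4.61 by duplex. Its place past the threshold that chose it was lost without NFE2L2 replicate 1 (1.78) or 3 (1.67) or without control replicate 2 (1.73), 3 (1.81) or 4 (1.84).

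SLC7A8 (ENSG00000092068.14, GRCh37 chr14:23594504-23652883, minus strand) rose most with duplex 3. It had 77, 64 and 141 reads with NFE2L2 duplexes 1, 2 and 3, 21 and 18 with control duplex 1, 30 and 27 with control duplex 2 and 44 in mock. The NFE2L2 siRNA libraries did not overlap the controls, and mock stood above every control and below every NFE2L2 siRNA library. The mean was 2.37 ± 0.863 CPM (SD, n = 3) against 0.652 ± 0.153 CPM (SD, n = 4), a 3.63-fold ratio and a log2 difference of 1.86 (SE 0.286), which fell to 1.53 when duplex 3 was left out. By duplex the ratio was 3.30, 2.50 and 5.09. Its place past the threshold that chose it was lost without NFE2L2 replicate 3 or without any 1 of the 4 control libraries (log2 differences from 1.53 to 1.97).

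Of all tested genes, 2.76% were past the threshold in this comparison, 1.39% higher and 1.36% lower, and 11.9% had every NFE2L2 siRNA library above every control. The 5 genes are in both classes because they were chosen that way. The gene just inside the list, SLC7A8, had a log2 difference of 1.86, and the next genes in the ranking of 226 were COL21A1, a collagen, at 1.78, MT1F, a metallothionein, at 1.78, PPP1R16B, a regulatory subunit of protein phosphatase 1, at 1.73, HAS3, a hyaluronan synthase, at 1.67, and HABP2, a hyaluronan-binding protease, at 1.66. HAS3 differed from its neighbours in the ranking in being measured on a mean of 1099 reads. The read minimum sets who is on the list: 9 genes past the threshold rose more than SLC7A8 on a mean under 50 reads. The largest of these rises was 2.83, for ZFP57 with 10, 19 and 25 reads against 1 to 4, and CYP3A7 (2.38), RAB17 (2.17) and CDH5 (1.99) were among the others, named here after their values were seen. With a minimum of 20 reads 2 of the 5 genes stayed among the 5 largest rises, and with 100 reads 1 did. With control duplex 1 or control duplex 2 as the sole control, 1 of the 5 stayed.

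All 5 genes were low in control cells. The ranking used these same control libraries and favours genes that are low in them, so this level is given as a description. Their control means exceeded those of only 16.2% (SERPINA5) to 27.2% (PADI2) of tested genes, whose median was 13.9 CPM. As reads per kilobase of exon and per 1000000 reads (RPKM), the control levels were ordered ECEL1 (0.378 ± 0.0822), PADI2 (0.265 ± 0.0459), TNFSF10 (0.234 ± 0.0766), SERPINA5 (0.141 ± 0.0208) and SLC7A8 (0.109 ± 0.0256), as mean ± SD with n = 4. Neighbours in that order overlapped within 1 SD. With NFE2L2 siRNA the order was ECEL1 (1.39 ± 0.228), PADI2 (1.10 ± 0.0711), SERPINA5 (0.872 ± 0.308), TNFSF10 (0.860 ± 0.289) and SLC7A8 (0.395 ± 0.144), with n = 3. Here only SLC7A8 was separated from its neighbour by more than 1 SD of each. NFE2L2 itself was at 7.46 ± 0.290 RPKM in controls.

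**Figure D2:**
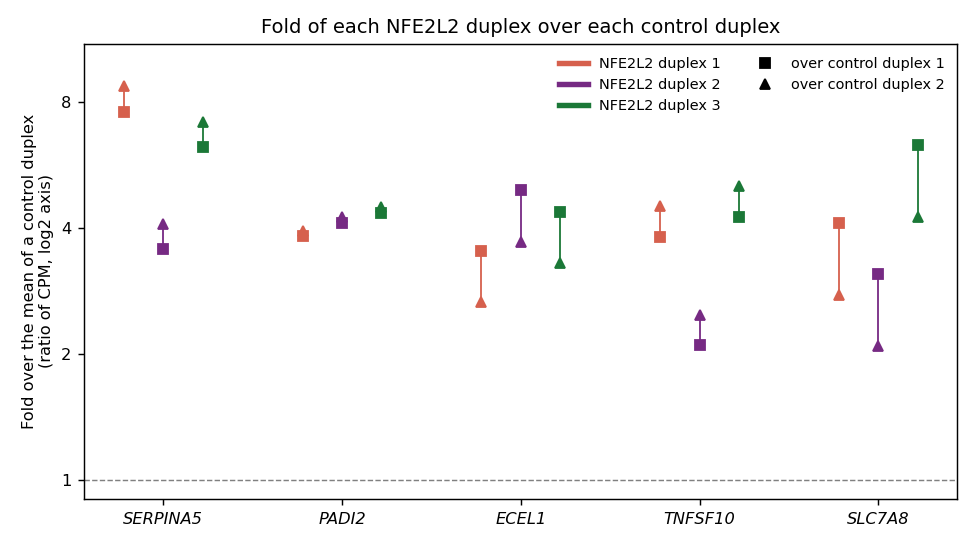
Ratio of each NFE2L2 duplex to the mean of control duplex 1 (squares) and of control duplex 2 (triangles), in CPM on a log2 axis, with the dashed line at 1. All 30 ratios lie above 2, from 2.09 for SLC7A8 (duplex 2 over control duplex 2) to 8.71 for SERPINA5 (duplex 1 over control duplex 2). These libraries also chose the genes, for large rises without overlap, so the ratios are a description and high values were largely built in.

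The 3 NFE2L2 duplexes were compared with each other across all genes, with the spread taken from the repeats of the control duplexes (edgeR with 5 groups and 2 residual degrees of freedom). The lone library of each NFE2L2 duplex was assumed to vary like those repeats. The choice of the 5 genes used the same libraries, since a gene had to lie above the controls with every duplex and a wide spread among duplexes worked against passing its threshold. Their differences among duplexes are therefore given as a description. Of 15 such differences, 1 was past the threshold, where 14.7% (duplex 2 against 1), 10.1% (3 against 1) and 7.57% (3 against 2) of all tested genes were, and nothing is read from that count. SERPINA5 was lower with duplex 2 than with duplex 1 by a log2 difference of -1.09 (SE 0.246), and by -1.08 in DESeq2, where it was not past the threshold. SERPINA5 was 0.81 higher with duplex 3 than with duplex 2 on the log2 scale (SE 0.247).

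TNFSF10 and SLC7A8 were also lowest with duplex 2. Between duplexes 3 and 2, the log2 difference was 1.02 for TNFSF10 (SE 0.329) and 1.02 for SLC7A8 (SE 0.252). PADI2 differed least, by 0.10 (SE 0.214), 0.19 (SE 0.211) and 0.08 (SE 0.208) for 2 against 1, 3 against 1 and 3 against 2. ECEL1 differed by 0.48 (SE 0.234), 0.31 (SE 0.235) and -0.17 (SE 0.224) for the same pairs. NFE2L2 was 0.66 higher on the log2 scale with duplex 2 than with duplex 1 (SE 0.0881, edgeR adjusted p = 0.000598) and 0.81 higher with duplex 2 than with duplex 3, given as -0.81 for 3 against 2 (SE 0.0878, edgeR adjusted p = 0.000313). The duplex with the most remaining NFE2L2 was thus the lowest of the 3 for SERPINA5, TNFSF10 and SLC7A8. For SLC7A8 the log2 difference of duplex 2 against 1 was only -0.40 (SE 0.271). ECEL1 was not lowest there, at 4.76 CPM with duplex 2 beside 3.41 with duplex 1 and 4.23 with duplex 3. Each duplex had 1 library, and a relation to the remaining NFE2L2 was not tested. For all pairs in PADI2, and for duplexes 3 and 2 in ECEL1, the difference was smaller than its SE, so no order is read there.

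The 2 control duplexes were compared in the 4 control libraries, which the choice of the 5 genes had also used, so that genes with a narrow spread among controls were favoured. The values of the 5 genes are again a description. Of the 5 genes 0 were past the threshold, where 3.07% of all tested genes (546 of 17811) were, and nothing is read from that count. SLC7A8 had the largest of the 5 differences, 0.57 higher with control duplex 2 on the log2 scale (SE 0.301), and its 2 libraries of control duplex 2 were above both of control duplex 1. ECEL1 was 0.41 higher (SE 0.260), and for SERPINA5, PADI2 and TNFSF10 the log2 differences were -0.19, -0.04 and -0.24. Each of these was smaller than its standard error, and each changed sign when a control library was left out: SERPINA5 without control replicate 4 (0.0087), PADI2 without replicate 2 (0.24) or 3 (0.099) and TNFSF10 without replicate 1 (0.39). At an unadjusted p under 0.05, 0 of the 5 passed in edgeR, and DESeq2 called 0.

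The mock transfection was compared with the same control libraries that served to choose the genes. In edgeR 0% of the tested genes passed the threshold, with 546 genes at an unadjusted p under 0.05 and 16 genes past the threshold in DESeq2. The log2 differences of mock from control were -0.49 for SERPINA5 (SE 0.518), 0.28 for PADI2 (SE 0.249), -0.13 for ECEL1 (SE 0.340), 0.03 for TNFSF10 (SE 0.490) and 0.76 for SLC7A8 (SE 0.429). SLC7A8 thus had a mock level of 1.10 CPM, 1.69 times the control mean and above all 4 controls, though with an edgeR adjusted p of 1.00, and 0 of the 5 genes had an unadjusted p under 0.05 or a DESeq2 call. With 1 mock library, differences of this size were not detectable.

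Peptidylarginine deiminases are encoded by a cluster on chromosome 1, in which PADI2 lies 85677 bp from PADI1 and on the opposite strand, PADI3 follows PADI1 after 3091 bp and PADI4 after a further 23962 bp. Of 4 other family members listed, 3 were matched and 2 had enough reads. Both were past the threshold and higher, as were 1.39% of all tested genes. The deiminases PADI1 and PADI3 are best known from the epidermis and hair follicle. PADI1 had 129, 173 and 197 reads with NFE2L2 duplexes 1, 2 and 3, then 81, 73, 71 and 69 in controls and 76 in mock. PADI3 had 271, 309 and 573 reads with the 3 duplexes, 136, 136, 129 and 141 in controls and 181 in mock. In both genes every NFE2L2 siRNA library was above every control, as in 11.9% of all tested genes. PADI4, the deiminase of granulocytes, did not exceed 3 reads in a library.

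The log2 difference was 1.08 for PADI1 (SE 0.150, edgeR adjusted p = 0.00274) and 1.39 for PADI3 (SE 0.203, edgeR adjusted p = 0.00360), beside 2.05 for PADI2. PADI1 was no longer past the threshold without NFE2L2 replicate 3 (1.01, adjusted p = 0.0129) or without control replicate 2 (1.07, 0.0164), 3 (1.05, 0.0141) or 4 (1.06, 0.0140). PADI3 was lost without control replicate 1 (1.39, adjusted p = 0.0123), 2 (1.39, 0.0185), 3 (1.35, 0.0171) or 4 (1.42, 0.0125). Both also lost the call with either control duplex as the sole control or with both libraries per control duplex summed. They kept their direction in all 17 other settings, which groups without overlap largely fix in advance. Among the duplexes, PADI3 was higher with duplex 3 than with duplex 1 (0.83, SE 0.147, edgeR adjusted p = 0.00408) and than with duplex 2 (0.78, SE 0.145, edgeR adjusted p = 0.00602), calls that DESeq2 did not make, whereas PADI1 did not pass in any of the 3 pairs. SDHB, a subunit of succinate dehydrogenase and the neighbour of PADI2 on the other side, had a log2 difference of -0.12 (SE 0.103, edgeR adjusted p = 0.517).

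**Figure D3:**
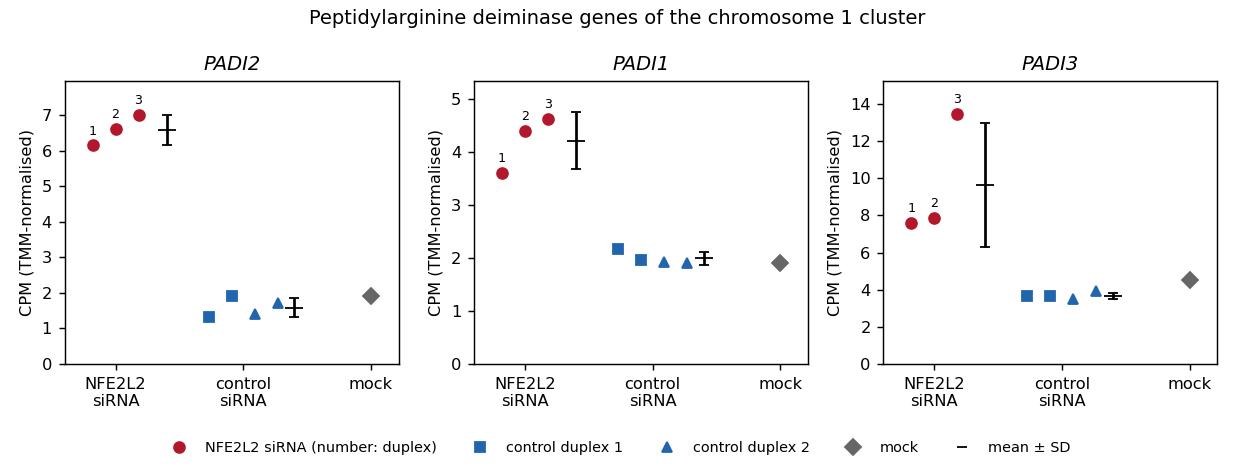
Level of PADI2, PADI1 and PADI3 in each library, in TMM-normalised CPM on linear axes that start at 0, with symbols and mean ± SD bars (n = 3 and n = 4) as for the 5 genes. All 3 genes were higher in every NFE2L2 siRNA library, and duplex 3 stands apart in PADI3 at 573 reads.

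The amino acid transporters of the SLC7 family, to which SLC7A8 belongs, did not move one way. Of 14 other SLC7 and SLC3 genes 10 were tested, of which 1 rose and 1 fell past the threshold. Of all tested genes, 1.39% rose and 1.36% fell. The list had a median log2 difference of -0.47 beside 0.01 over all tested genes. SLC7A2 carries cationic amino acids, and its reads numbered 2626, 2986 and 3757 after knockdown, 1554, 1120, 1837 and 1431 in controls and 2072 in mock. It rose by 0.98 (SE 0.154, edgeR adjusted p = 0.00524). This call was lost without NFE2L2 replicate 3 (0.89, adjusted p = 0.0254) or control replicate 1 (0.99, 0.0157), 2 (0.86, 0.0110) or 4 (0.97, 0.0207). Over all 17 other settings, SLC7A2 kept its call in 10.

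SLC7A11, the cystine/glutamate exchanger and a known NRF2 target, had 3196, 1295 and 2525 reads against 16262 to 21611 in controls and 21630 in mock, and fell by 3.09 on the log2 scale (SE 0.298, edgeR adjusted p = 0.000307). SLC3A2, the heavy chain with which LAT2 pairs, had 8211, 27645 and 17572 reads with duplexes 1, 2 and 3, 24889 to 30325 in controls and 31466 in mock. SLC7A5, the light chain LAT1, had 6764, 59031 and 28302 reads, 37138 to 49189 in controls and 45112 in mock. Both genes of this exchanger had duplex 1 well below the controls and duplex 2 near or above them. Neither passed against controls (log2 difference -0.74, SE 0.294, edgeR adjusted p = 0.155 for SLC3A2, and -0.53, SE 0.501, 0.553 for SLC7A5), and both passed in all 3 pairs of duplexes, with SLC7A5 2.99 higher with duplex 2 than with duplex 1 (SE 0.115, edgeR adjusted p = 3.62e-06). SLC7A8 did not share that pattern, having its highest level with duplex 3 and its lowest with duplex 2. SLC7A7 (y+LAT1) was, like SLC7A8, lowest with duplex 2, with 670 reads against 2039 and 2174, and it was below all controls there.

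**Figure D4:**
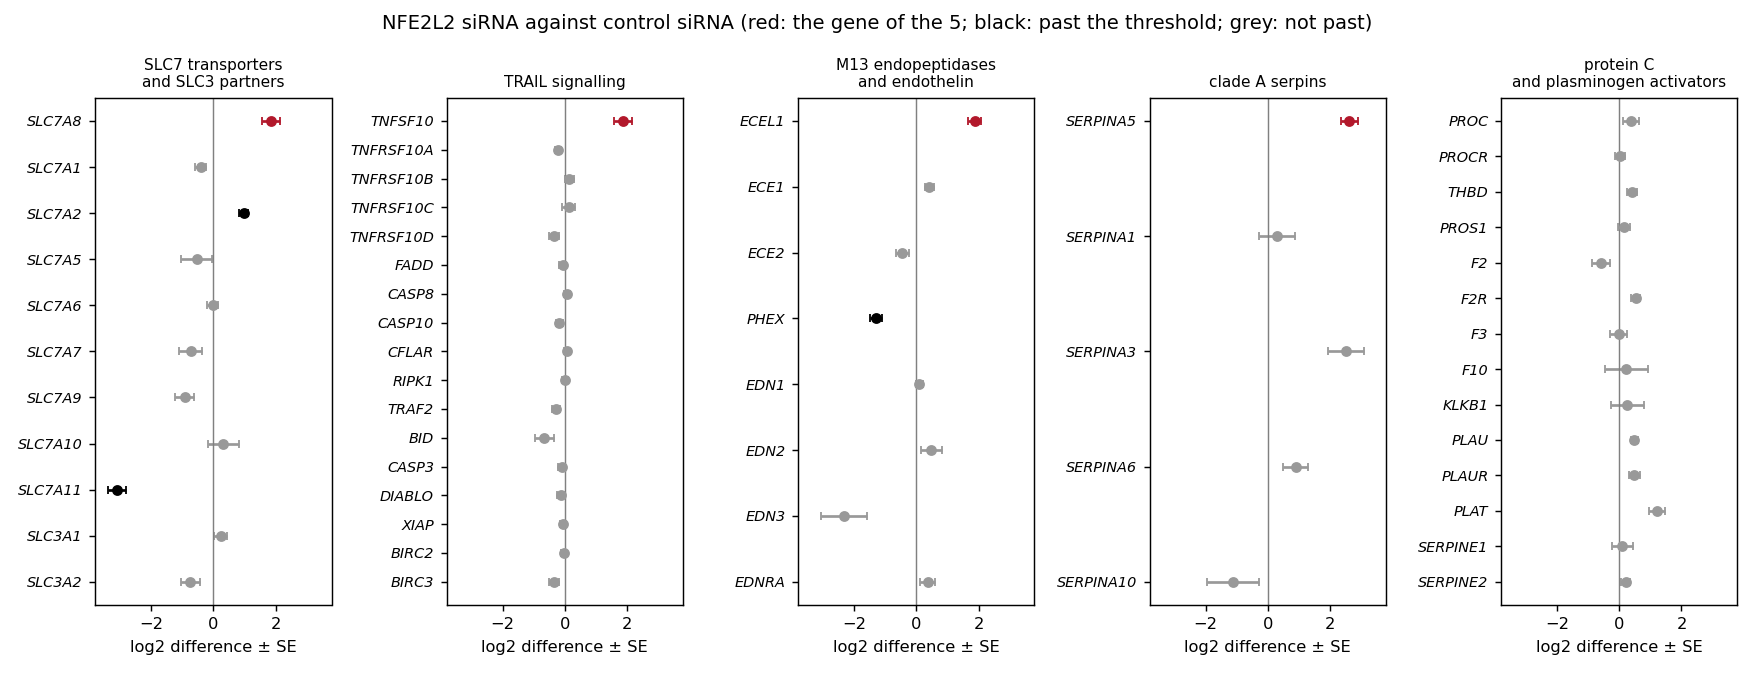
Log2 difference between NFE2L2 siRNA and control siRNA, with its SE, for the tested genes of 5 gene lists. Red points are the 4 genes of the ranking that belong to a list, chosen for this difference and shown as a description, black points passed the threshold and grey points did not. Black points are SLC7A2 and SLC7A11 in the SLC7 panel and PHEX among the M13 peptidases, and the TRAIL panel holds none.

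None of the receptors and signalling proteins of the ligand TNFSF10 passed against controls. Of 17 listed genes 16 were tested, of which 0 passed in edgeR, DESeq2 or limma-voom and 1 had an unadjusted edgeR p under 0.05, with differences from -0.65 (BID) to 0.14 (TNFRSF10B) and a median of -0.09. At that unadjusted threshold 25% of all tested genes passed. With 2.76% of all tested genes past the adjusted threshold in edgeR, little is read from 0 of 16. TNFRSF10B, the death receptor DR5, was read 15890, 12033 and 12771 times after knockdown and 10593 to 13229 times in controls, a log2 difference of 0.14 (SE 0.147, edgeR adjusted p = 0.595). TNFRSF10D, a decoy receptor, differed by -0.35 (SE 0.157, edgeR adjusted p = 0.198). BID, which carries the death signal to mitochondria, had 464 reads with duplex 2, against 1343 and 1274 with duplexes 1 and 3 and 1385 to 1693 in controls. It was 1.67 lower on the log2 scale with duplex 2 than with duplex 1, given as -1.67 (SE 0.126, edgeR adjusted p = 2.26e-05).

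Interferon-stimulated genes were examined because TNFSF10 is itself induced by interferon and because double-stranded RNA can start that response. Of 26 listed genes 25 were matched and 20 tested, of which 0 passed against controls in edgeR, DESeq2 or limma-voom. In edgeR 2.76% of all tested genes passed, so little is read from 0 of 20. An unadjusted edgeR p under 0.05 was found for 6 of the 20, where 25% of all tested genes had one. The difference was positive in 17 of the 20, with a median of 0.30 beside 0.01 over all tested genes. STAT2 had a log2 difference of 0.32 (SE 0.119, edgeR adjusted p = 0.130) and OAS1 of -0.18 (SE 0.105, 0.326). Of these 20 genes, 4 had every NFE2L2 siRNA library above every control, where 11.9% of all tested genes did. These 4 were IFIT2, ISG15, IFI44 and STAT2, the first 3 named here after their values were seen. The duplexes differed from gene to gene. IFIT1 was highest with duplex 1, at 13.2, 9.26 and 8.37 CPM with duplexes 1, 2 and 3 and 4.65 to 9.27 in controls. IRF9, also named after its values were seen, had 5.65, 2.88 and 3.39 CPM against 2.44 to 3.35. MX1, an antiviral GTPase, had 48, 51 and 172 reads with duplexes 1, 2 and 3 and 25 to 52 in controls, so that duplex 3 alone stood above the controls. MX1 was 1.59 higher with duplex 3 than with duplex 1 (SE 0.267, edgeR adjusted p = 0.00313) and 1.64 higher than with duplex 2 (SE 0.264, edgeR adjusted p = 0.00268), on the log2 scale. TNFSF10, for comparison, was 4.13, 2.27 and 4.61 times the control mean with duplexes 1, 2 and 3. The part of an interferon response in the TNFSF10 level was not tested.

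Other clade A serpins had few reads. Of 10 listed genes 4 were tested, and 0 passed in edgeR, DESeq2 or limma-voom, where in edgeR 2.76% of all tested genes did. An unadjusted edgeR p under 0.05 was found for 1 of the 4, where 25% of all tested genes had one. SERPINA3, the nearest coding gene downstream of SERPINA5 and on the same strand, was read 7, 12 and 15 times after knockdown and 0 to 3 times in controls. Its fitted log2 difference of 2.52 (SE 0.570, edgeR adjusted p = 0.0266) thus rests on few reads. SERPINA6, which encodes corticosteroid-binding globulin, had 110, 112 and 129 reads after knockdown, but 120 and 56 reads with control duplex 1 and 30 and 31 with control duplex 2, so the groups overlapped (0.90, SE 0.408, edgeR adjusted p = 0.207). Among the proteases and cofactors on which the protein C inhibitor acts and their partners, 14 of 16 genes were tested. Of these 0 passed in edgeR or limma-voom, DESeq2 called 1, and 5 had an unadjusted edgeR p under 0.05. Among all tested genes, 2.76% passed in edgeR and 25% had an unadjusted edgeR p under 0.05. The difference was positive in 12 of the 14, with a median of 0.24 beside 0.01 over all tested genes. Between control duplexes 2 and 1 it was positive in 10 of the 14, with a median of 0.18. There 8 of the 14 had an unadjusted edgeR p under 0.05, where 25.4% of all tested genes had one. PLAT, tissue plasminogen activator, had 280, 160 and 275 reads against 65, 90, 118 and 113, with 137 in mock. Its difference was 1.22 (SE 0.259, edgeR adjusted p = 0.0200), and like SERPINA5 it was lower with duplex 2 than with duplex 1 (-0.94, SE 0.206, edgeR adjusted p = 0.00829). PLAT was also 0.60 higher on the log2 scale with control duplex 2 than with control duplex 1 (SE 0.187, edgeR adjusted p = 0.0718). PLAU, urokinase, differed by 0.48 between NFE2L2 siRNA and control siRNA (SE 0.121, edgeR adjusted p = 0.0392).

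In the M13 peptidase family and the endothelin system, which its ECE enzymes activate, 7 of 11 genes were tested, 0 rose and 1 fell. Of all tested genes, 1.39% rose and 1.36% fell past the threshold. PHEX, the M13 peptidase of phosphate balance, had 86, 66 and 77 reads after knockdown, 227, 166, 158 and 158 in controls and 140 in mock. Its log2 difference was -1.29 (SE 0.196, edgeR adjusted p = 0.00430), a direction opposite to that of ECEL1. The call was lost without NFE2L2 replicate 3 (-1.24, adjusted p = 0.0235) or control replicate 2 (-1.32, 0.0169), 3 (-1.36, 0.0122) or 4 (-1.33, 0.0124). Over all 17 other settings, PHEX kept its call in 10. ECE1, the endothelin-converting enzyme, had 3372, 5521 and 6369 reads against 3384 to 3747. As with ECEL1, duplex 1 was its lowest, and ECE1 was higher with duplex 2 than with duplex 1 (0.57, SE 0.0890, edgeR adjusted p = 0.00135). PRSS56, a serine protease gene 32554 bp from ECEL1, had 55 to 119 reads against 21 to 47, a log2 difference of 1.29 that did not pass (SE 0.295, edgeR adjusted p = 0.0277). NCEH1, next to TNFSF10, differed by 0.09 (SE 0.124, edgeR adjusted p = 0.717).

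The genes most like each of the 5 across the 8 libraries were found by Pearson's r of log2(CPM + 0.5) among 13342 genes with a mean of at least 50 reads. These r values are a description over 8 libraries that share 1 knockdown contrast, which sets most of their size. SERPINA5 was followed most closely by PDE4B, a cAMP phosphodiesterase (r = 0.989), RAB6B (0.987) and LZTS3 (0.987). For PADI2 these were SLC52A1, a riboflavin transporter (0.990), CTSH, a lysosomal cathepsin (0.988), and HIVEP3 (0.984), and for ECEL1 they were SORT1, which encodes sortilin (0.992), MTSS1 (0.988) and STK10 (0.987). TNFSF10 was matched best by ARSD (0.986), the interferon-inducible IFITM2 (0.985) and VAMP8 (0.984), and SLC7A8 by VAV2 (0.994), the non-coding LINC02532 (0.990) and TRIM2 (0.989). These genes had log2 differences from 0.38 for PDE4B to 1.31 for TRIM2. That the 5 changed more follows largely from their choice as the largest rises. Among themselves, the 5 genes had r from 0.881 (ECEL1 and SLC7A8) to 0.962 (SERPINA5 and TNFSF10).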

How the data were processed

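Strand-specific total RNA-seq of 8 A549 transfections was analysed from counts as deposited. The authors aligned reads to hg19 with HISAT 0.1.6 and counted them per GENCODE v19 gene with HTSeq 0.6.0 on the reverse strand, per the submitters' processing notes and the study's methods, with no normalization. Counts therefore depend on gene length and on gene models, and reads shared by overlapping genes of a strand are not counted. Entries that name no gene (34.4% to 39.7% of each file) were left out. Symbols, gene limits and exonic lengths were taken from the GRCh37 mapping of GENCODE v44, which held 55538 of 60291 identifiers. Lengths may thus differ from the models used for counting. Promoter windows were RefSeq's on GRCh38.p14, and no coordinates were converted.

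Samples were grouped by their labels. Any gene reaching 10 reads in 1 or more of the 7 siRNA libraries entered the quasi-likelihood test of edgeR 4.0.16, run in R 4.3.3 (TMM, glmQLFit, glmQLFTest, prior count 0.125, two-sided, Benjamini-Hochberg over 17811 genes, threshold 0.01), and SE is the absolute log2 difference over the square root of F. The scripts were tested on simulated data. CPM are per 1000000 reads of the TMM-scaled library, in which 3 counts equal 0.0720 to 0.0844 CPM. NFE2L2 siRNA was compared with control siRNA (3 against 4), control duplex 2 with 1, mock with control siRNA in a fit of all 8 libraries, and the NFE2L2 duplexes with each other. In the mock comparison the lone library was assumed to vary like the others. Replicate libraries differed by more than sampling noise, so none was counted as a duplicate.

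The 5 genes and all gene lists were chosen with earlier results of these data known. Genes named are the 5, NFE2L2, the next 5 in the ranking, the 3 most correlated genes for each, the nearest coding genes with enough reads, and from each list those past the threshold in any comparison plus at most 4 with the highest mean reads. Cell type markers, SERPINA4 and genes said to be named after their values were seen fall outside this rule. Not all of these are named in the text, and some listed genes are not reported here. Alternatives were DESeq2 1.42.0, limma-voom (limma 3.58.1), other normalizations, filters and control groups, a threshold of 0.05, and each library left out.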

Additional observations from a re-analysis of the deposited data

Results flagged for a closer look

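Among 13 genes examined, 1 had a control library far from the other 3: PHEX was at 6.10 CPM in control replicate 1, with a gap to the next library of 0.893 of the whole range, and above Dixon's critical value. Chance gives such a library in about 1 in 20 groups, or 0.65 of 13.

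Of the 5 genes, SERPINA5 differed between NFE2L2 duplexes, at -1.09 on the log2 scale for duplex 2 against 1, a difference in libraries that had also served to choose the gene. SLC7A11 differed in all 3 pairs, at -1.44 for duplex 2 against 1, -0.59 for 3 against 1 and 0.85 for 3 against 2, being lowest with the duplex that left the most NFE2L2. PADI3 was higher with duplex 3 than with duplex 1 (0.83) and duplex 2 (0.78). Each duplex had 1 library, so a difference between duplexes and a difference between single transfections cannot be told apart.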

How the results depend on the processing

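Depth limited the 5 genes, which had 15 to 71 reads in control libraries. Their rise from control to NFE2L2 siRNA kept its direction in all 17 other settings, from 1.53 (SLC7A8 without NFE2L2 replicate 3) to 2.86 (SERPINA5), and SLC7A8 ranged from 1.53 to 2.06 with 1 library left out. Groups without overlap were a condition for choosing the 5 genes, so their direction was largely fixed in advance. The threshold that chose them was passed in all 17 by PADI2, in 14 by SERPINA5 and ECEL1 (highest adjusted p 0.0276 and 0.0202) and in 9 by TNFSF10 and SLC7A8 (0.0836 and 0.0876). Counts of genes depended on the processing. Past the threshold, of which higher, were 491 and 248 genes, against 1314 and 722 in DESeq2, 1019 and 574 with a filter of 1 read, 771 and 450 with mock added to the controls, and 1456 and 825 at a threshold of 0.05. They were 117 and 23 with control duplex 1 alone, 60 and 7 with control duplex 2 alone, 77 and 3 with both libraries per control duplex summed, and 163 to 917 and 35 to 395 with 1 library left out, where fewer libraries were fitted. Among the 5 largest rises, 1 of the 5 genes remained with control duplex 1, control duplex 2 or summed controls, 2 at a minimum of 20 reads, 1 at 100 reads, and 3 to 4 with 1 library left out. Summed controls and the other read minima were chosen after seeing the data. Control duplexes gave 546 genes, 0 in a fit of all 7 siRNA libraries and 0 to 2021 with 1 library left out, where the lone library is assumed to vary like the others. The sign of the 5 genes reversed there in 4 fits, to 0.0087 for SERPINA5 (range -0.43 to 0.0087), 0.24 and 0.099 for PADI2 (from -0.29) and 0.39 for TNFSF10 (from -0.68). In mock, DESeq2 gave 16 genes, and TNFSF10 reversed to -0.10 and -0.01 in a range of -0.10 to 0.28. SERPINA5 between duplexes 2 and 1 was not past the threshold in DESeq2 (-1.08, adjusted p = 0.194). The cause was not tested for these changes. A further 45 results of genes named beside the 5 lost their call with an unchanged direction, mostly with 1 control duplex or 1 library left out.

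With a replicate block for the repeat number of the control labels, control duplexes 2 and 1 differed in 2568 genes in place of 546. Over 17811 genes the differences between repeats correlated at r = 0.171 in 1 pair of duplexes, and the labels do not say that repeats share a day, so they were not taken as pairs. No paired analysis was possible because NFE2L2 duplexes and repeats of control duplexes share no numbering for the comparison of NFE2L2 siRNA with control siRNA.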
